A study of Mus musculus with 20 samples.

Results

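The 10 genes followed here switch on mitochondrial and fatty acid oxidation genes in the heart and were measured by RNA sequencing of mouse left ventricle. They are the coactivator genes Ppargc1a, Ppargc1b and Perm1, the estrogen-related receptor genes Esrra, Esrrb and Esrrg, the retinoid X receptor gene Rxrg, the nuclear respiratory factor genes Nrf1 and Gabpa, and the Krüppel-like factor gene Klf15. They were taken by gene symbol, 10 of the 19985 genes listed at 24 weeks and 10 of the 19872 listed at 2 weeks, and all 10 passed the filter on low values at both times. Mice labelled dnOGAh-Tg made a dominant-negative O-GlcNAcase in the heart under doxycycline food, and ventricles were taken after 24 or 2 weeks of induction. The work asked, by its title, what raised O-GlcNAc in cardiomyocytes does to heart size and mitochondria over time. The 4 groups were 24-week dnOGAh-Tg, 24-week Control, 2-week dnOGAh-Tg and 2-week Control, with 5 libraries each and 20 in all. The promoter that drives the transgene, the alleles of the Control mice, their food, and the strain and age of all mice are details not given in the sources used here. The labels do not say that libraries came from separate animals, so a p-value here weighs a change against library-to-library spread, which may be technical.

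O-GlcNAcase, encoded by Oga, removes the sugar O-GlcNAc from nuclear, cytoplasmic and mitochondrial proteins. PGC-1α and PGC-1β, the products of Ppargc1a and Ppargc1b, do not bind DNA themselves but are recruited by nuclear receptors and other factors, and the estrogen-related receptors (ERRs) and the nuclear respiratory factors are the partners through which they raise transcription of respiratory chain, tricarboxylic acid cycle and fatty acid oxidation genes. In the adult heart, which lives mostly on fatty acids, these factors keep oxidative capacity high, and Ppargc1a is one of the genes whose level follows energy demand.

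Values are normalized read counts, that is, reads per gene divided by a size factor per library, and a change is the dnOGAh-Tg minus Control difference of log2(value + 1), with its standard error (SE). Tests were limma-trend across all tested genes with Benjamini-Hochberg adjusted p-values, and a gene is said to have passed when its adjusted p was under 0.05. Reads assigned to listed genes numbered 23953851 to 37844796 per library in 24-week dnOGAh-Tg, 24240718 to 30610824 in 24-week Control, 24641225 to 50996272 in 2-week dnOGAh-Tg and 22804712 to 31906006 in 2-week Control. The fewest reads behind a value of the 10 genes were 219, for Ppargc1b, and the most were 22146, for Perm1.

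Some libraries stood apart. Counts assigned to Oga, which may include reads of the transgene, were 6.90 to 17.9 times the Control mean in the 24-week dnOGAh-Tg libraries. At 2 weeks they were 16.1, 17.2 and 11.9 times the Control mean in dnOGAh-Tg libraries 3, 4 and 5, but 2.43 and 1.81 times in libraries 1 and 2, whose titles share the code F11 with Control libraries 1 and 2. The meaning of the title codes was not stated in the labels, and 2-week results are given with and without the F11 dnOGAh-Tg libraries. Libraries also differed in the balance of long transcripts (at least 5000 bases) against short ones (under 2000 bases). This balance is the median log2 deviation of the long transcripts minus the median of the short ones. It ran from -0.56 to 0.33 in 24-week dnOGAh-Tg and from -0.23 to 0.42 in 24-week Control, and from -0.61 to 0.45 in 2-week dnOGAh-Tg and from -0.31 to 0.54 in 2-week Control. Of the atrial markers, Myl7 reached 912 in dnOGAh-Tg library 4 at 24 weeks and 2652 in Control library 2 at 2 weeks. It was at most 13.5 in the other libraries. Sln, another atrial marker, was 322 to 1358 in the 24-week dnOGAh-Tg libraries and 2.53 to 12.5 in 24-week Control. Myl4 was 96.6 to 4528 in 24-week dnOGAh-Tg and 49.0 to 72.8 in 24-week Control.

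After 24 weeks, 3 of the 10 genes fell and 1 rose. Ppargc1a fell to 0.556 times and Rxrg to 0.604 times the Control mean, with no overlap between the groups, and Ppargc1b to 0.739 times. Esrrb rose to 1.28 times the Control mean. Over all genes tested at 24 weeks, 22.5% passed in either direction, 11.1% lower and 11.3% higher, so the count of 4 in 10 was read against about that share. The groups did not overlap for 2 of the 10 genes, both lower in dnOGAh-Tg, against 8.19% of all genes that lay wholly lower. The median log2 change was -0.26 over the 10 genes and -0.0046 over all tested genes.

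**Figure D1:**
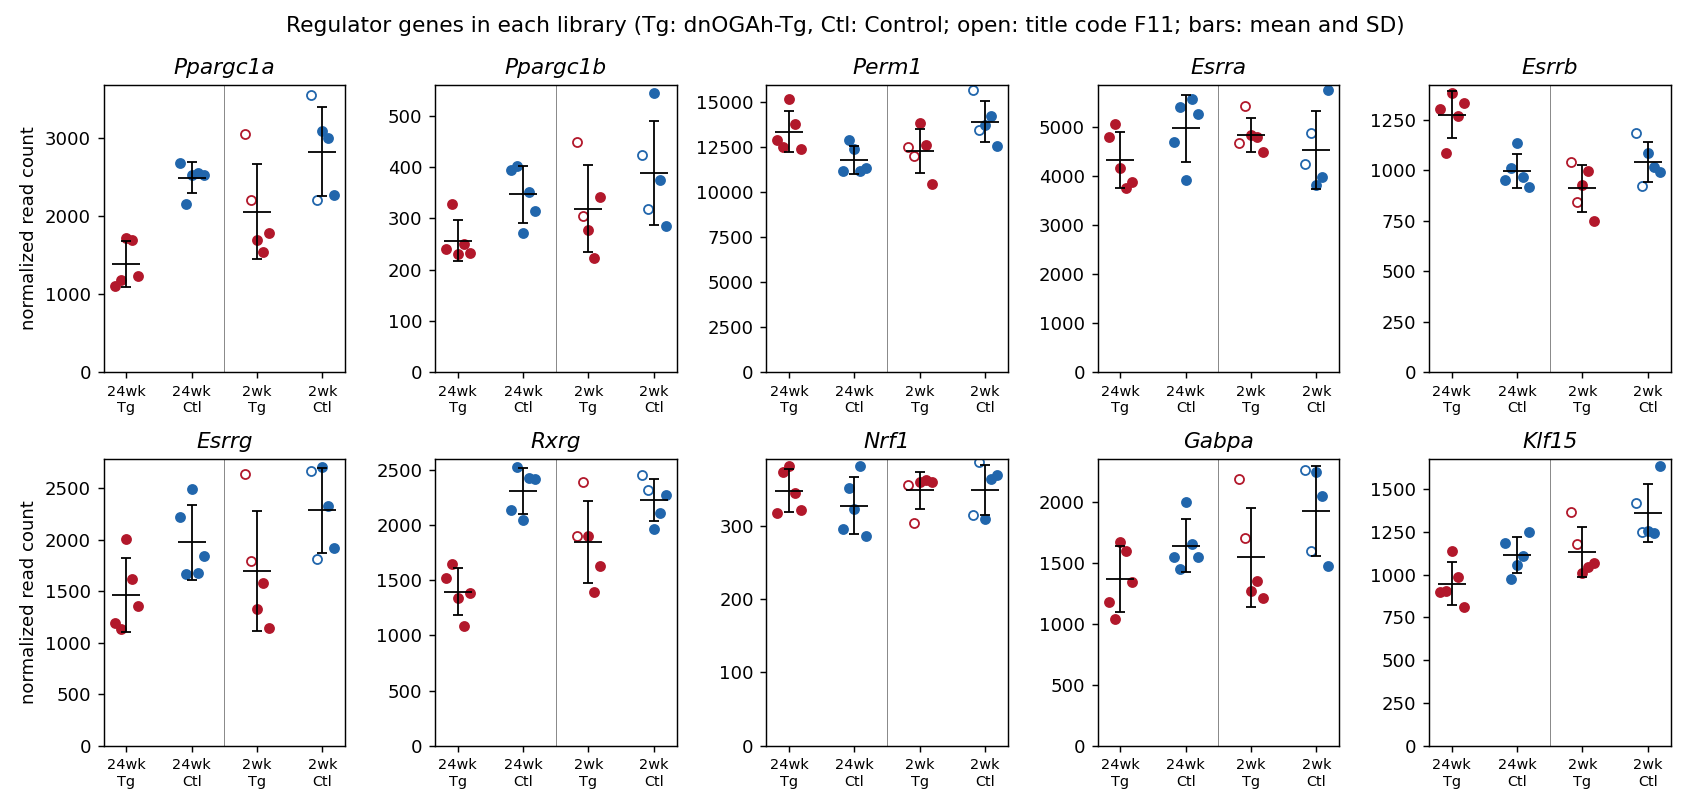
Normalized read counts (y axis, from 0) of the 10 regulator genes in every library, with dnOGAh-Tg (Tg, red) left of Control (Ctl, blue) at 24 weeks and at 2 weeks; points are libraries, open points carry the title code F11, and black bars are the mean and SD of 5 libraries. Ppargc1a and Rxrg separate fully at 24 weeks, while Esrrb has 4 of 5 dnOGAh-Tg libraries above every Control library.

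Ppargc1a (ENSMUSG00000029167, GRCm39 chr5:51611592-51725068, minus strand) encodes PGC-1α, the best known coactivator of mitochondrial biogenesis. Its promoter is shown because it is the member with the largest fall, and that of Esrrb because it is the one that rose. The promoters of Rxrg and Perm1 are shown because, among the 9 members with a RefSeq promoter, they alone matched the short ERR motif AAGGTCA. RefSeq holds 2 promoters of Rxrg, the other without the motif, and the bases after neither start were found in a GENCODE M21 transcript of the gene. Each is the 250 bases upstream of a RefSeq gene start on GRCm38.p6, read 5′ to 3′ on the strand of the gene. Capitals mark CGTCA, the core of the cyclic AMP response element, in Ppargc1a and Esrrb, and AAGGTCA in Rxrg and Perm1, on either strand.
Ppargc1a, chr5:51567726-51567975, minus strand: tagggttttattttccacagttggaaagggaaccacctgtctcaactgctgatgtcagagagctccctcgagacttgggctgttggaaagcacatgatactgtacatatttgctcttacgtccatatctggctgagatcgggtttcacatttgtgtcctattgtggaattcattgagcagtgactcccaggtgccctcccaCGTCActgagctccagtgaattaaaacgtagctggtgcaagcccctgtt
Esrrb, chr12:86360867-86361116, plus strand: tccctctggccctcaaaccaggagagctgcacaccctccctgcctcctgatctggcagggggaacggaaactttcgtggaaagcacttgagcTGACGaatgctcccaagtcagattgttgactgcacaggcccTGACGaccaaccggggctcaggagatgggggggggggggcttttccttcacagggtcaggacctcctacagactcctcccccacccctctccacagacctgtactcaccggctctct
Rxrg, chr1:167618015-167618264, plus strand: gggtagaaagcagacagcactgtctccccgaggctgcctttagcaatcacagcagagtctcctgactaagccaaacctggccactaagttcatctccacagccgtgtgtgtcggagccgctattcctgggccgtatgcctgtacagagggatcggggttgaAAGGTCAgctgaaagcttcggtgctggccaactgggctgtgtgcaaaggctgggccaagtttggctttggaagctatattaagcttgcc
Perm1, chr4:156215677-156215926, plus strand: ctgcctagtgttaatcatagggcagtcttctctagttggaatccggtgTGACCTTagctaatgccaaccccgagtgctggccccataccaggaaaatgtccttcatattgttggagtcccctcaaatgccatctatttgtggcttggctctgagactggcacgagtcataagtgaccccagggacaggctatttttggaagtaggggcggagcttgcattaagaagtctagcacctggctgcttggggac

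RefSeq held 15 promoters for 9 of the 10 genes and none for Ppargc1b, which was not searched. The short ERR motif AAGGTCA was found on either strand in 2 of these 15, and in 4.08% of the 32851 promoters of the table. In the Rxrg promoter shown it lies 89 to 83 bases upstream of the start, and in Perm1 it lies 202 to 196 bases upstream as TGACCTT. The longer ERR element TCAAGGTCA, which contains the short motif, was in 0 of the 15 and 0.387% of all. The sequence GCGCATGCG bound by nuclear respiratory factor 1 was in 0 of the 15 and 1.45% of all, and CCGGAAGT, bound by GABP and other ETS factors, in 0 of the 15 and 2.88% of all. The cyclic AMP core CGTCA, searched after the sequences had been seen, was in 3 of the 15, those of Ppargc1a, Esrrb and Klf15, and in 17.8% of all. In Ppargc1a it lies 49 to 45 bases upstream. In the Esrrb promoter shown it lies 158 to 154 and 117 to 113 bases upstream, on the other strand. The other RefSeq promoter of Esrrb (chr12:86421394-86421643) has no CGTCA. The full element TGACGTCA, which contains it, was in 0 of the 15 and 1.55% of all. A match is a description of the letters and not a site that was shown to be bound.

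Among the coactivators, Ppargc1a had 1099, 1181, 1713, 1693 and 1233 normalized counts in the 24-week dnOGAh-Tg libraries, against 2680.2, 2153, 2525, 2547 and 2527 in the 24-week Control libraries. Every dnOGAh-Tg library lay below every Control library, and dnOGAh-Tg libraries 3 and 4 were the highest of their group. The means were 1384 ± 296 in dnOGAh-Tg and 2486 ± 197 in Control (SD, n = 5 each). On the log2 scale Ppargc1a fell by 0.87 (SE 0.13), which passed with a limma adjusted p = 0.000516 and in all 22 settings tried at 24 weeks.

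Ppargc1b (ENSMUSG00000033871, GRCm39 chr18:61431207-61533502, minus strand) encodes PGC-1β, the close relative of PGC-1α that also acts on mitochondrial genes. It had 240.4, 327.4, 231.1, 250.2 and 232.5 normalized counts in 24-week dnOGAh-Tg, against 394.1, 403.0, 271.5, 351.0 and 314.0 in 24-week Control. In dnOGAh-Tg, 4 of the 5 libraries lay below the lowest Control library and library 2 lay within the Control range. Ppargc1b fell by 0.43 on the log2 scale (SE 0.14), with an adjusted p of 0.0405 by limma, and passed in 13 of 22 settings. The call ended when Control library 1, 2, 4 or 5 or dnOGAh-Tg library 1, 3, 4 or 5 was left out (adjusted p = 0.0538 to 0.0955), and in the fit of all 20 libraries.

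Perm1 (ENSMUSG00000078486, GRCm39 chr4:156300325-156305764, plus strand) encodes a muscle protein that is induced by PGC-1 and ERR and acts with them on oxidative genes. It had 12928, 12502, 15186, 13811 and 12408 normalized counts in 24-week dnOGAh-Tg, against 11186, 12895, 12388, 11189 and 11359 in 24-week Control. The groups overlapped, with 3 dnOGAh-Tg libraries above the highest Control library. Its log2 change of 0.18 (SE 0.09) had a limma adjusted p = 0.162. It passed in 1 of 22 settings, quantile normalization (adjusted p = 0.0151).

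The estrogen-related receptors differed from each other in direction. These orphan nuclear receptors bind the same short element without a known natural hormone and act through PGC-1 coactivators. Esrrb (ENSMUSG00000021255, GRCm39 chr12:86407891-86568402, plus strand), ERRβ, had 1302, 1083, 1384, 1270.3 and 1335 normalized counts in 24-week dnOGAh-Tg, against 950.2, 1010.45, 1132, 967.7 and 918.0 in 24-week Control. In dnOGAh-Tg, 4 of the 5 libraries lay above the highest Control library, and library 2 lay within the Control range. Esrrb rose by 0.35 on the log2 scale (SE 0.09), with an adjusted p of 0.0137 by limma, and passed in all 22 settings.

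Esrrg (ENSMUSG00000026610, GRCm39 chr1:187340988-187947082, plus strand), ERRγ, is abundant in heart and known for the switch to oxidative metabolism around birth. It had 1195, 1131, 2006, 1625 and 1357 normalized counts in 24-week dnOGAh-Tg, against 2219, 1665, 2493, 1674 and 1839.7 in 24-week Control. The groups overlapped, since dnOGAh-Tg library 3 lay above 3 of the Control libraries, although the other 4 dnOGAh-Tg libraries lay below them all. Its log2 change of -0.45 (SE 0.16) did not pass (adjusted p = 0.0675 by limma). Without dnOGAh-Tg library 3 it was -0.57 and passed (adjusted p = 0.0156).

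Esrra (ENSMUSG00000024955, GRCm39 chr19:6888345-6899208, minus strand), ERRα, is a partner of PGC-1α on respiratory and fatty acid oxidation genes and is itself induced by it. It had 4804, 5078, 4162, 3772 and 3883 normalized counts in 24-week dnOGAh-Tg, against 4701, 5410.4, 3921, 5585 and 5282 in 24-week Control. Control library 3 was among the low values and the groups overlapped. With a log2 change of -0.20 (SE 0.12, adjusted p = 0.258 by limma), it passed in 0 of 22 settings (adjusted p = 0.0551 to 0.437).

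Rxrg (ENSMUSG00000015843, GRCm39 chr1:167425953-167467192, plus strand) encodes retinoid X receptor γ, of the family whose members pair with PPAR, thyroid hormone and other nuclear receptors. It had 1521, 1649, 1337, 1088 and 1387 normalized counts in 24-week dnOGAh-Tg, against 2134, 2529.7, 2044, 2422 and 2421 in 24-week Control. Every dnOGAh-Tg library lay below every Control library. The means were 1396 ± 211 in dnOGAh-Tg and 2310.2 ± 209 in Control (SD, n = 5 each). On the log2 scale Rxrg fell by 0.73 (SE 0.11), with an adjusted p of 0.000548 by limma, and passed in all 22 settings.

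The nuclear respiratory factors are transcription factors of respiratory chain and mitochondrial maintenance genes. Nrf1 (ENSMUSG00000058440, GRCm39 chr6:30047987-30153457, plus strand) had 317.2, 373.6, 381.4, 344.3 and 322.1 normalized counts in 24-week dnOGAh-Tg, against 296.1, 351.1, 323.5, 381.2 and 286.1 in 24-week Control. These values overlapped nearly throughout, with a log2 change of 0.09 (SE 0.11, adjusted p = 0.595 by limma). Gabpa (ENSMUSG00000008976, GRCm39 chr16:84631813-84660667, plus strand) encodes the DNA-binding subunit of GABP, also called nuclear respiratory factor 2. It had 1179.8, 1039, 1670.4, 1600.5 and 1346 normalized counts in 24-week dnOGAh-Tg, against 1547, 1447, 2004, 1658 and 1551 in 24-week Control. The 3 lowest dnOGAh-Tg libraries lay below all Control libraries and the other 2 lay among them. This gave a log2 change of -0.28 (SE 0.14, adjusted p = 0.169 by limma).

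Klf15 (ENSMUSG00000030087, GRCm39 chr6:90439558-90452220, plus strand) encodes a transcription factor of amino acid, glucose and lipid use that is induced by glucocorticoids and restrains cardiac growth in mice. It had 897.8, 905.7, 1139, 984.5 and 808.2 normalized counts in 24-week dnOGAh-Tg, against 1185, 975.9, 1054, 1106 and 1249.7 in 24-week Control. The 3 lowest dnOGAh-Tg libraries lay below all Control libraries, and library 3 lay in the middle of them. Klf15 had a log2 change of -0.24 (SE 0.11, adjusted p = 0.126 by limma), and without dnOGAh-Tg library 3 it was -0.31 and passed (adjusted p = 0.0460).

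At 24 weeks each of 5 title codes was shared by 1 dnOGAh-Tg and 1 Control library. Ppargc1a, Ppargc1b, Esrrg, Rxrg and Gabpa were lower in the dnOGAh-Tg library within all 5 codes, and Esrrb was higher within all 5. Klf15 was lower within 4 codes and Esrra within 3, while Perm1 and Nrf1 were higher within 4. The share of all genes with one direction within all 5 codes is not given, so these counts cannot be set against it. With a block for the code, which is also the replicate number, 6 of the 10 genes passed, where 26.7% of all genes did. The block added Esrrg (-0.45, SE 0.11, limma adjusted p = 0.0149) and Gabpa (-0.28, SE 0.09, adjusted p = 0.0385) to the 4 genes called without it.

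**Figure D2:**
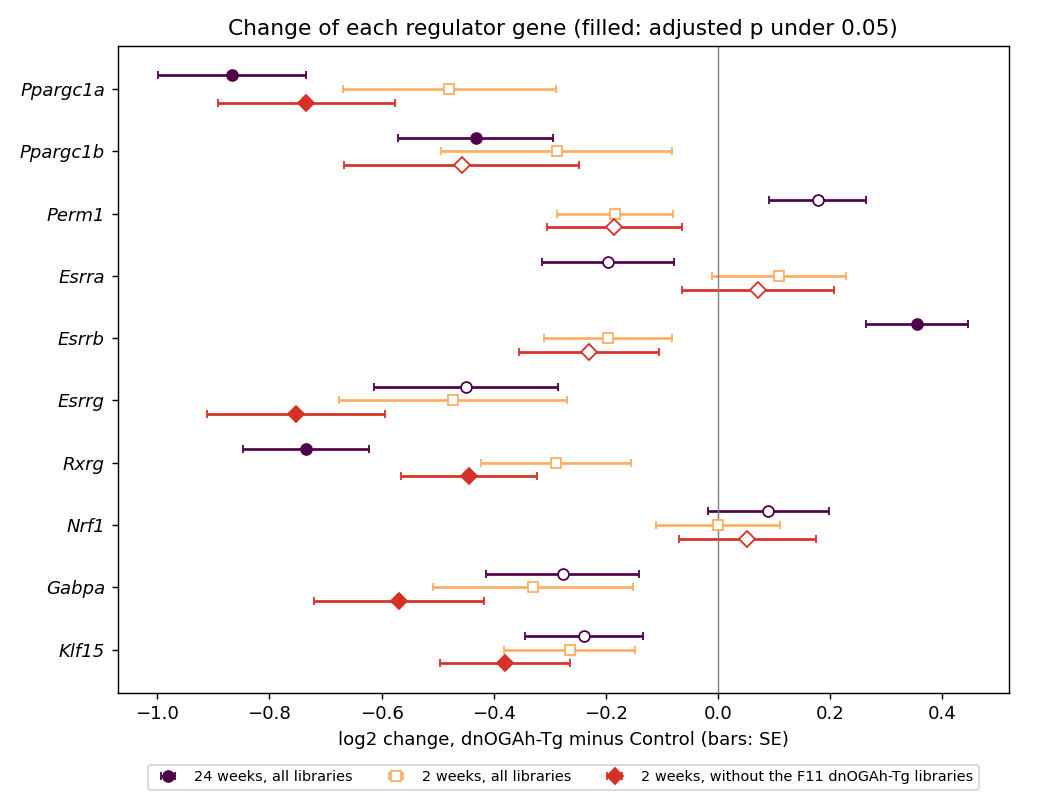
Log2 change of dnOGAh-Tg minus Control (x axis) of each regulator gene, with bars of 1 SE, at 24 weeks (circles), at 2 weeks with all libraries (squares) and at 2 weeks without the F11 dnOGAh-Tg libraries (diamonds); filled symbols passed an adjusted p of 0.05. Filled circles stand at Ppargc1a, Ppargc1b, Esrrb and Rxrg, no square is filled, and diamonds are filled at Ppargc1a, Esrrg, Rxrg, Gabpa and Klf15.

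Marker genes of the ventricle's cell types moved with the 24-week comparison. The summed counts of 8 ventricular cardiomyocyte markers were 1.17e+06 to 1.63e+06 in 24-week dnOGAh-Tg libraries and 1.69e+06 to 2.18e+06 in Control libraries, and 3 of the 8 fell. The sum does not stand for each marker, since Myl2 overlapped widely (119664 to 283063 in dnOGAh-Tg and 123738 to 264626 in Control). Of the endothelial markers 4 of 5 fell (sums 15294 to 20905 in dnOGAh-Tg and 22526 to 26115 in Control), and of the mural markers 2 of 4 fell (17038 to 26924 in dnOGAh-Tg and 22983 to 30685 in Control). Of the fibroblast markers 2 of 5 rose (36923 to 60711 in dnOGAh-Tg and 27269 to 34510.1 in Control). Atrial markers rose in 1 of the 2 tested (sums 443 to 6903 in dnOGAh-Tg and 59.7 to 99.9 in Control). Outside dnOGAh-Tg library 4, these dnOGAh-Tg sums were mostly Sln (322 to 540). There Myl7 (0.94 to 11.6) and Bmp10, another atrial marker (0 to 5.64), stayed within the Control ranges (0 to 13.5 and 0 to 22.4). Skeletal muscle markers rose in 1 of the 2 tested (46.0 to 76.7 in dnOGAh-Tg and 25.4 to 33.0 in Control). In limma 0 of 5 macrophage and 0 of 4 listed adipocyte markers passed. Unadjusted p-values under 0.05 were reached by 0 macrophage and 1 adipocyte markers, edgeR called 0 of either, and DESeq2 called 0 and 1. Counts of mitochondrially encoded genes made up 11.9 to 13.5% of all counts in 24-week dnOGAh-Tg libraries and 14.9 to 17.1% in Control libraries, with no overlap, and 11.3 to 14.1% in 2-week dnOGAh-Tg and 12.8 to 14.5% in 2-week Control. At 2 weeks none of the marker lists held a gene that passed in limma, but 3 of 5 macrophage markers had an unadjusted p under 0.05 and DESeq2 called 3 (sums 3076 to 5409.7 in dnOGAh-Tg and 2247 to 3469 in Control). In bulk tissue, fewer cells of a type and less RNA per cell cannot be told apart, and the part of cell makeup or of the mitochondrial share in the changes of the 10 genes was not tested. Without dnOGAh-Tg library 4, which had the highest Myl7 at 24 weeks, Ppargc1a, Rxrg and Esrrb still passed. Leaving out that library does not address the atrial marker Sln, which was above Control in every 24-week dnOGAh-Tg library.

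After 2 weeks no member passed with all libraries. By limma 0 of the 10 genes passed, 3 had an unadjusted p under 0.05, and edgeR and DESeq2 on recovered reads called 0 each. Of all tested genes limma called 0%, edgeR 0% and DESeq2 5.83%, and 24.3% had an unadjusted p under 0.05. The median log2 change was -0.28 over the 10 genes and -0.02 over all genes. Without the F11 dnOGAh-Tg libraries 5 of the 10 were lower and 0 higher, where 33.8% of all genes passed, 17.7% lower and 16.1% higher, and the median was -0.41. Leaving out dnOGAh-Tg library 1 alone gave 4 lower members, against 23.1% of all genes in either direction. Those 4 were Gabpa (-0.47, adjusted p = 0.0449), Esrrg (-0.65, 0.0192), Ppargc1a (-0.63, 0.0195) and Klf15 (-0.33, 0.0450). Without all 4 F11 libraries, Controls included, 3 passed as lower, against 22.2% of all genes.

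At 2 weeks Ppargc1a had 3051, 2207, 1695, 1536 and 1783 normalized counts in dnOGAh-Tg, against 3553, 2207, 3089, 2997 and 2267 in Control. The F11 dnOGAh-Tg libraries 1 and 2 were the highest of their group, and library 1 alone reached into the Control range. Ppargc1a thus had a log2 change of -0.48 (SE 0.19, adjusted p = 0.163 by limma) with all libraries and -0.73 (SE 0.16, adjusted p = 0.00619) without those libraries. Within the F11 code, the values were 3051 and 2207 in dnOGAh-Tg and 3553 and 2207 in Control, and within F14 they were 1536 and 1783 in dnOGAh-Tg and 3089, 2997 and 2267 in Control. Within F14 the 2 dnOGAh-Tg libraries lay below the 3 Control libraries, a comparison of few libraries for which no share of all genes is given. The length balance of these F14 libraries was -0.28 and -0.61 in dnOGAh-Tg and 0.54, 0.40 and -0.31 in Control. Library 3 was the single dnOGAh-Tg library of code F13.

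Esrrg showed the same arrangement at 2 weeks, with 2644, 1792, 1324, 1581 and 1148 normalized counts in dnOGAh-Tg, against 2668, 1817, 2708, 2327 and 1923 in Control. Its log2 change was -0.47 (SE 0.20, adjusted p = 0.183 by limma) with all libraries and -0.75 (SE 0.16, adjusted p = 0.00574) without the F11 dnOGAh-Tg libraries. Gabpa had 2191, 1703, 1272, 1350.03 and 1213 in dnOGAh-Tg, against 2262, 1594, 2242, 2048 and 1474 in Control. The F11 dnOGAh-Tg libraries lay inside the Control range and the other 3 below it. The change was -0.33 (SE 0.18, adjusted p = 0.260) with all libraries and -0.57 (SE 0.15, adjusted p = 0.0160) without them.

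Rxrg had 1903, 2387, 1903, 1396 and 1629.96 normalized counts in 2-week dnOGAh-Tg, against 2455, 2321, 1961, 2113 and 2272 in 2-week Control. Only dnOGAh-Tg library 2 lay within the Control range, and library 1, with a low Oga level, lay below it beside library 3. It changed by -0.29 on the log2 scale (SE 0.13, adjusted p = 0.206 by limma) with all libraries and -0.44 (SE 0.12, adjusted p = 0.0177) without the F11 dnOGAh-Tg libraries. Klf15 had 1365, 1178, 1009.7, 1044 and 1067 in dnOGAh-Tg, against 1421, 1247, 1256, 1244 and 1636 in Control. Library 1 alone reached into the Control range. The change was -0.26 (SE 0.12, adjusted p = 0.190) with all libraries and -0.38 (SE 0.12, adjusted p = 0.0273) without the F11 dnOGAh-Tg libraries. Without all F11 libraries neither Rxrg (adjusted p = 0.0832) nor Klf15 (adjusted p = 0.0683) passed.

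The other 5 members passed neither with nor without the F11 dnOGAh-Tg libraries at 2 weeks. Ppargc1b ran from 222.6 to 449.1 in dnOGAh-Tg and from 284.9 to 544.1 in Control (log2 change -0.29, SE 0.21). Perm1 ran from 10439.7 to 13827 in dnOGAh-Tg and from 12574 to 15701 in Control (-0.18, SE 0.10). Esrrb ran from 748.9 to 1041 in dnOGAh-Tg and from 922.9 to 1182 in Control (-0.20, SE 0.11). Esrra ran from 4501 to 5428 in dnOGAh-Tg and from 3817 to 5768 in Control (0.11, SE 0.12), and Nrf1 from 304.1 to 362.2 in dnOGAh-Tg and from 310.0 to 386.5 in Control (7.4e-05, SE 0.11). All 5 pairs of ranges overlapped, and no dnOGAh-Tg library of any of the 5 lay above the highest Control library.

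Whether a change at 24 weeks differed from that at 2 weeks was tested as the difference of the within-time changes in one fit. Esrrb alone passed, with a log2 change of 0.35 at 24 weeks and -0.20 at 2 weeks (difference 0.55, SE 0.14, limma adjusted p = 0.0474), where 1.76% of all genes passed, 1.07% higher at 24 weeks. The call was narrow. It passed in 14 of 35 settings and ended on leaving out any 1 of 15 libraries (adjusted p = 0.0506 to 0.0964), namely 24-week dnOGAh-Tg 1, 3, 4 and 5, 24-week Control 1, 2, 4 and 5, 2-week dnOGAh-Tg 2, 3 and 5, and 2-week Control 1 to 4. It also ended without all F11 libraries (adjusted p = 0.116, where 0.237% of all genes passed), while without the F11 dnOGAh-Tg libraries alone it was 0.59 (adjusted p = 0.0448, where 2.18% passed). Perm1, with 0.18 at 24 weeks and -0.18 at 2 weeks, had a difference of 0.36 (SE 0.13, adjusted p = 0.156). For Rxrg the difference was -0.45 (SE 0.18, adjusted p = 0.222), for Ppargc1a -0.39 (SE 0.24, adjusted p = 0.484) and for Esrra -0.31 (SE 0.17, adjusted p = 0.402). The other 5 genes had differences between -0.14 and 0.09. Without the F11 dnOGAh-Tg libraries the difference was -0.29 for Rxrg (adjusted p = 0.313), -0.13 for Ppargc1a (adjusted p = 0.742), 0.30 for Esrrg (adjusted p = 0.482) and 0.29 for Gabpa (adjusted p = 0.435).

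**Figure D3:**
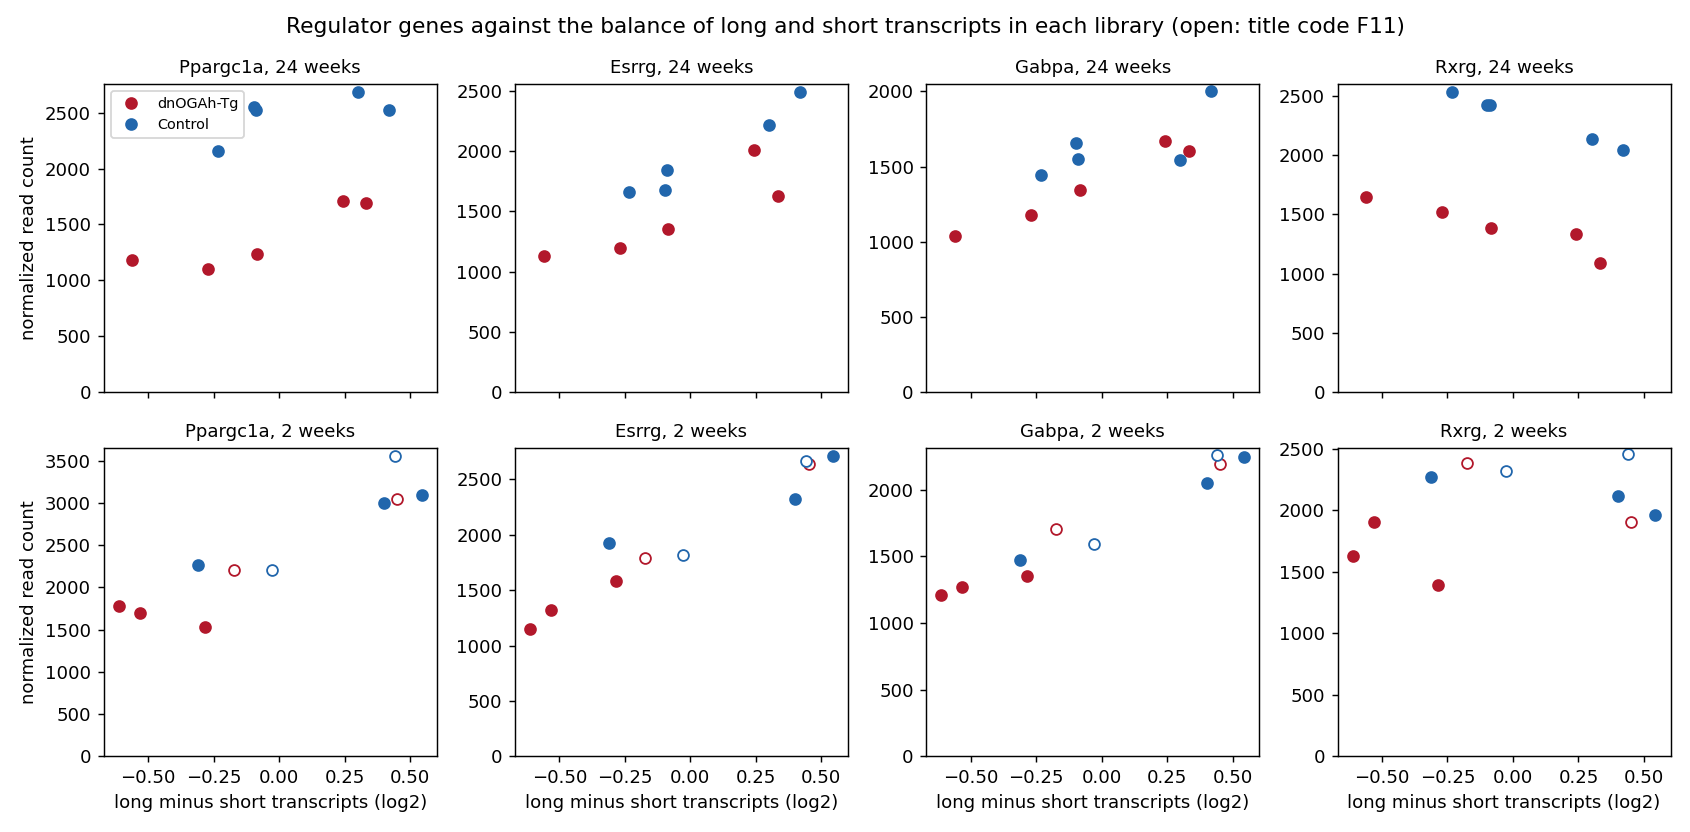
Normalized read counts (y axis, from 0) of Ppargc1a, Esrrg, Gabpa and Rxrg against the balance of long and short transcripts in each library (x axis). The balance is the median log2 deviation of long transcripts minus that of short ones. Points are red for dnOGAh-Tg and blue for Control, at 24 weeks (top) and 2 weeks (bottom), and open points carry the title code F11. Counts of Ppargc1a, Esrrg and Gabpa are mostly higher in libraries with a higher balance, less closely in 24-week Control. At 24 weeks dnOGAh-Tg lies below Control across the range for Ppargc1a and Rxrg.

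The members with long transcripts followed the length balance of the libraries, less closely in 24-week Control than in the other groups. Ppargc1a, Esrrg and Gabpa have longest annotated transcripts of 6464, 5373 and 4987 bases, and Rxrg has one of 2110.0 bases. At 24 weeks the dnOGAh-Tg libraries 3 and 4 had the highest balance of their group (0.24 and 0.33) and the highest counts of Ppargc1a, Esrrg and Gabpa, and also the highest Oga. In 24-week Control, library 3 had the highest balance (0.42) and the highest Esrrg and Gabpa. Its Ppargc1a count of 2525 was below the 2547 of library 4, whose balance was -0.10. Control library 1 (0.30) had 1547 for Gabpa, below the 1658 of library 4. At 2 weeks dnOGAh-Tg library 1 (0.45) and Control libraries 1, 3 and 4 (0.44, 0.54 and 0.40) had the highest balance and the highest counts of the same 3 genes, while the other dnOGAh-Tg libraries lay between -0.61 and -0.17. A fit that removed the trend over transcript length and GC content in each library was added after these values were seen. In it the 24-week change of Ppargc1a was -0.80 (SE 0.08, limma adjusted p = 1.99e-05), that of Rxrg -0.83 (adjusted p = 5.99e-06), that of Ppargc1b -0.51 (adjusted p = 0.00791) and that of Esrrb 0.30 (adjusted p = 0.0112). Esrrg (-0.40, adjusted p = 0.00952) and Gabpa (-0.23, adjusted p = 0.0499) then also passed, making 6 of 10, where 30.5% of all genes passed. At 2 weeks this fit called 0 of the 10 with all libraries, of 0% of all genes, with Ppargc1a at -0.29 (adjusted p = 0.124) against -0.48 uncorrected and Gabpa at -0.21 (adjusted p = 0.232) against -0.33. Without the F11 dnOGAh-Tg libraries it called the same 5 members as the fit without the correction, of 31% of all genes, with Ppargc1a at -0.42 (adjusted p = 0.00885) against -0.73 uncorrected and Gabpa at -0.36 (adjusted p = 0.0113) against -0.57.

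The levels of the 10 genes could be set beside each other only per kilobase of the longest annotated transcript. In 24-week dnOGAh-Tg the order of mean normalized counts per kilobase was Perm1 3427, Esrra 1744, Rxrg 662, Klf15 382, Esrrb 296, Gabpa 274, Esrrg 272, Ppargc1a 214, Nrf1 86.0 and Ppargc1b 70.1. In 24-week Control it was Perm1 3026, Esrra 2001, Rxrg 1095, Klf15 449, Ppargc1a 385, Esrrg 368, Gabpa 329, Esrrb 232, Ppargc1b 94.8 and Nrf1 81.1. Ppargc1a thus stood at place 8 in dnOGAh-Tg and at place 5 in Control, and Esrrb at place 5 in dnOGAh-Tg and at place 8 in Control. Ranges over libraries of neighbours in the order overlapped from Esrrb to Ppargc1a and between Nrf1 and Ppargc1b in dnOGAh-Tg, and from Klf15 to Gabpa and between Ppargc1b and Nrf1 in Control. At 2 weeks the order of the means was the same in both groups, from Perm1 (3149 in dnOGAh-Tg and 3571 in Control) to Nrf1 (86.2 and 86.3).

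Genes around the 10 regulators were described by 6 lists drawn from general knowledge of the pathway, with earlier results of these data known. Their counts are therefore a description and not independent of these data. Of 26 target genes of ERR and PGC-1, 19 fell and 0 rose at 24 weeks, with a median log2 change of -0.50, where 11.1% of all tested genes fell. Ucp3, an uncoupling protein of muscle mitochondria, averaged 297 ± 67.8 normalized counts in 24-week dnOGAh-Tg and 1333 ± 584 in Control (SD, n = 5 each), -2.09 on the log2 scale (SE 0.24, adjusted p = 7.50e-05 by limma). Etfdh, which passes electrons from fatty acid oxidation to ubiquinone, averaged 13733 ± 427 in dnOGAh-Tg and 23462 ± 2248 in Control (-0.77, adjusted p = 6.36e-05). Sdha of succinate dehydrogenase (-0.78, adjusted p = 6.95e-05) and Cs, citrate synthase (-0.75, adjusted p = 0.000105), fell with them. Leaving out 1 library at a time gave 14 to 20 called genes in the list.

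Of the 6 tested target genes of KLF15, 5 fell and 0 rose at 24 weeks (median -0.58). Kcnip2, a subunit of the transient outward potassium channel, averaged 1267 ± 653 in dnOGAh-Tg and 7353 ± 3148 in Control (-2.47, SE 0.41, limma adjusted p = 0.00103), and Gpt, an alanine aminotransferase, 673 ± 151 in dnOGAh-Tg and 1315 ± 172 in Control (-0.98, adjusted p = 0.000558). The Kcnip2 groups overlapped, at 750 to 2379 in dnOGAh-Tg and 1992 to 9748 in Control. Without Control library 3 its change was -2.89 (limma adjusted p = 1.83e-05). Of 16 target genes of NRF1 and GABP, 2 fell and 0 rose (median -0.25), a share near the 11.1% of all tested genes that fell. These were Alas1, the first enzyme of heme synthesis (-0.73, adjusted p = 0.000416), and Tfb2m, a mitochondrial transcription factor (-0.40, adjusted p = 0.0197). Leaving out Control library 1 gave 4 and leaving out dnOGAh-Tg library 2 gave 6 called genes in this list, where 19.1% and 21.6% of all genes were called. Tfam, the packaging and transcription factor of mitochondrial DNA, had a change of -0.11 (adjusted p = 0.356).

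Of 25 partners and coregulators, 4 fell and 0 rose at 24 weeks (median -0.18), and of the 25 tested genes of upstream signalling 2 fell and 0 rose (median -0.18), both to be read against the 11.1% of all genes that fell. Thrb, a thyroid hormone receptor, had 307 to 410 normalized counts in dnOGAh-Tg and 461 to 602 in Control (-0.63, limma adjusted p = 0.00152), and Prox1, a homeobox factor known in mice to act with ERRα, fell by 0.74 on the log2 scale (adjusted p = 0.0104). Rxra (-0.27, adjusted p = 0.0281) and Pparg (-0.37, adjusted p = 0.0431) also passed, but Rxra lost its call without Control library 1, 3 or 5 or dnOGAh-Tg library 1, 2, 4 or 5 (adjusted p = 0.0520 to 0.0657), and Pparg without Control library 1, 2 or 4 or dnOGAh-Tg library 1, 2, 3 or 5 (0.0580 to 0.109). The list of partners held 2 called genes without Control library 1 or without dnOGAh-Tg library 1 or 5. Ppara, the fatty acid receptor that shares targets with ERR, had a change of -0.64 (SE 0.32, adjusted p = 0.172). The upstream genes that fell were Mapk14, the p38α kinase (-0.55, adjusted p = 0.000431), and Prkab1, a subunit of AMP-activated kinase (-0.56, adjusted p = 0.00158). That list held 5, 5 and 6 called genes without Control library 2, dnOGAh-Tg library 4 and dnOGAh-Tg library 3. Leaving out 1 library called 17.2 to 21.7% of all genes. Of 6 glucocorticoid-responsive genes 0 passed in limma and in edgeR, 1 had an unadjusted p under 0.05 and DESeq2 called 1. Fkbp5 had a change of 0.024 (limma adjusted p = 0.951). For the list of 6 as a whole, leaving out Control library 5 gave 1 call.

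**Figure D4:**
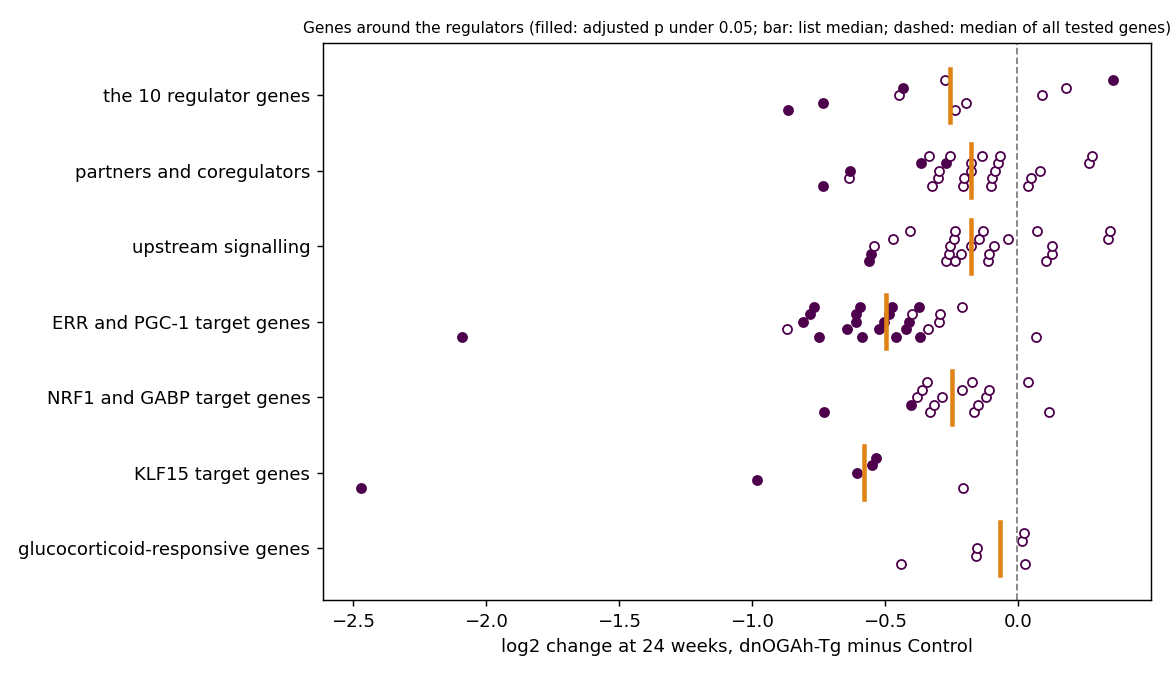
Log2 change at 24 weeks, dnOGAh-Tg minus Control (x axis), of the 10 regulator genes and of each tested gene in 6 lists around them; filled points passed an adjusted p of 0.05, orange bars are list medians and the dashed line is the median of all tested genes. The target genes of ERR and PGC-1 and of KLF15 have medians of -0.50 and -0.58, below that of the 10 regulators (-0.26).

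At 2 weeks 0 genes of each of the 6 lists passed in limma or edgeR with all libraries. Unadjusted p-values under 0.05 were reached by 5 target genes of ERR and PGC-1, 4 partners, 7 upstream genes, 2 KLF15 targets, 4 NRF1 and GABP targets and 0 glucocorticoid-responsive genes, and DESeq2 called 2, 1, 0, 0, 2 and 0 genes of these lists in the same order. Without the F11 dnOGAh-Tg libraries, 11 target genes of ERR and PGC-1 fell and 1 rose, 15 partners fell and 0 rose, 11 upstream genes fell and 1 rose, and 3 KLF15 targets fell and 0 rose, out of 26, 25, 25 and 6 genes tested. In the same setting 17.7% of all genes fell and 16.1% rose. Of the 16 NRF1 and GABP targets 2 fell and 4 rose, among them Cox5b (1.15, adjusted p = 0.0155) and Cox7c (1.16, adjusted p = 0.0168), subunits of cytochrome c oxidase with short transcripts (0.71, adjusted p = 0.0305, and 0.85, adjusted p = 0.0250, with the length and GC correction), and of the glucocorticoid-responsive genes 1 fell. Leaving out dnOGAh-Tg library 1 alone gave 6, 11, 8, 3, 3 and 1 called genes for the ERR and PGC-1, partner, upstream, KLF15, NRF1 and GABP, and glucocorticoid lists, where 23.1% of all genes were called, so that those of ERR and PGC-1, of NRF1 and GABP and of glucocorticoids were no higher in share than all genes. Ucp3 (-2.003, adjusted p = 0.000332), Kcnip2 (-2.15, adjusted p = 8.08e-06) and Ppara (-2.05, adjusted p = 0.00850) had the larger falls among the named genes without the F11 dnOGAh-Tg libraries. With all libraries they were -1.24, -1.30 and -1.23.

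Likeness was measured by the Pearson correlation of log2 deviations from the group mean over the 20 libraries, among 10471 genes. The 3 genes most like Ppargc1a were Zfp397 (r = 0.95), Vps13a (0.94) and Ttc23 (0.94), those most like Perm1 were Casq2 (0.87), Abraxas2 (0.84) and Rbm18 (0.84), and those most like Klf15 were Patz1 (0.79), Hnmt (0.79) and Sec63 (0.78). None of the 9 was another of the 10 regulators. The libraries share depth and length balance, so these values describe the libraries and carry no test.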

How the data were processed

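Left ventricles of 20 mouse libraries were sequenced as total RNA. Per the submitters' processing notes, the tools included DESeq2, R 4.0.3, STAR 2.7.3a, Trim Galore 0.6.6 and cutadapt 2.6, with build GRCm39. The read counter, annotation release and strand setting were not given in the sources used here, and overlapping antisense genes may therefore share reads. The authors deposited normalized counts in 2 tables, a signal made of reads divided by a size factor per library. In each library, dividing nonzero values by a single step gave whole numbers within 0.01 for 100% of them, which recovered the reads; in 2 columns that step was within 1% of 1.

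Values were log2 transformed after adding 1, and a gene was tested if 5 or more of the 10 libraries of that time reached 10 (14676 at 24 weeks, 14584 at 2 weeks, 14339 for the difference) with limma-trend (two-sided, in limma 3.58.1 under R 4.3.3). The tables were normalized separately, so each time was fitted alone. Alternatives were a filter of 50 or none, pseudocounts of 0.5 and 5, TMM and quantile normalization, edgeR 4.0.16 and DESeq2 1.42.0 on recovered reads, blocks for replicate number and title code, one fit of all libraries, and leaving out libraries. A loess correction (span 0.5) for transcript length and GC content, from GENCODE M21 joined by gene identifier, was added after seeing the data. All 10 members were named whatever their values, with up to 4 genes of smallest p-value per list and time, Oga, Ppara, Tfam and Fkbp5. Members and lists were chosen with earlier results of these data known. The fits were tested on simulated counts that held neither the length imbalance nor the split in Oga level. The planted changes were larger than those of the members, so that test does not check the calls given here. Promoters came from RefSeq, matched by symbol.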

Additional observations from a re-analysis of the deposited data

Results flagged for a closer look

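Ppargc1b had 327.4 normalized counts in 24-week dnOGAh-Tg library 2, far from the other 4 of its group (231.1 to 250.2). Nrf1 had 304.1 in 2-week dnOGAh-Tg library 2, a library of title code F11, below the other 4 (356.3 to 362.2). Across the 40 groups of 5 libraries checked for the 10 genes, chance alone would mark about 1 in 20. The change of Esrrb differed between times, by 0.55 on the log2 scale (0.35 at 24 weeks and -0.20 at 2 weeks).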

How the results depend on the processing

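At 24 weeks Ppargc1a, Rxrg and Esrrb passed under all 22 settings, and the count of called members lay between 3 and 6. It was 6 with the replicate block and with the length and GC correction, where 26.7% and 30.5% of all genes passed. Leaving out 1 library called 17.2 to 21.7% of all genes. At 2 weeks the count was 0 with all libraries under the alternatives of scale, filter and tool, and 5 without the F11 dnOGAh-Tg libraries, 5 with the length and GC correction beside that, 3 without all F11 libraries and 0 to 4 when 1 library was left out. For the difference between times it was 2 with quantile normalization (Esrrb and Perm1), and 0 with no filter, TMM rescaling or the title code block. It was also 0 without all F11 libraries, where 0.237% of all genes passed, and with the length and GC correction without the F11 dnOGAh-Tg libraries. Leaving out 1 library gave 0 to 1. With the length and GC correction and all libraries the count was 1, Ppargc1a (-0.50, limma adjusted p = 0.0499852) in place of Esrrb. The share of all genes passing is not given for the other settings of the difference, so those counts cannot be set against it. The correction gave, at 24 weeks, 9 called partners, 8 upstream genes, 9 NRF1 and GABP targets and 1 glucocorticoid-responsive gene, where 30.5% of all genes passed. Without the F11 dnOGAh-Tg libraries the 2-week lists held 15 called partners, 12 upstream genes, 12 ERR and PGC-1 targets, 6 NRF1 and GABP targets, 1 glucocorticoid-responsive gene and 3 KLF15 targets, where 33.8% of all genes passed. The causes were not tested.

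Signs turned only for changes that did not pass in limma with all libraries. The largest of these were -0.14 for the difference of Ppargc1b and 0.11 for Esrra at 2 weeks. Leaving out 1 library gave -0.046 to 0.087 for Fkbp5 and -0.041 to 0.048 for Nrf1 at 2 weeks, -0.11 to 0.18 for Fkbp5 at 24 weeks, and for the difference -0.10 to 0.20 for Esrrg, -0.025 to 0.19 for Gabpa and -0.042 to 0.096 for Klf15. Without the F11 dnOGAh-Tg libraries Fkbp5 was -0.13 at 2 weeks (-0.090 with the correction) and -0.25 without all F11 libraries, and the difference of Ppargc1b was 0.025 and 0.056. With the correction and without the F11 dnOGAh-Tg libraries Esrra was -0.054 at 2 weeks and the difference of Nrf1 -0.025. With the correction alone Fkbp5 was -0.025 at 24 weeks and the differences of Esrrg and Gabpa were -0.052 and -0.0081. The title code block gave -0.0061 for Nrf1 at 2 weeks and differences of -0.022 for Esrrg and -0.0030 for Klf15, and the difference of Esrrg was -0.0084 in edgeR and -0.0028 in DESeq2.

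Whether the replicate numbers pair the libraries could not be settled. At 24 weeks a number shares 1 title code in both groups, but the labels do not say what a code marks, and same-numbered libraries correlated at -0.02, 0.52, 0.39, -0.15 and 0.06 at 24 weeks and 2 of 5 numbers matched best with their own. At 2 weeks the values were 0.38, -0.17, -0.21, 0.05 and 0.17, with 1 of 5. A replicate block gave 6 called members at 24 weeks (Esrrg and Gabpa added), 0 at 2 weeks and 1 for the difference. With it 26.7% of all genes passed at 24 weeks, and the share for 2 weeks and for the difference is not given here. The title code block at 24 weeks is the same fit. The members with the fewest reads were Ppargc1b (219 to 794) and Nrf1 (226 to 630).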
